A study of Mus musculus with 19 samples.

Results

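Bone marrow RNA from mice that carry the Vav-iCre transgene was set against marrow RNA from mice without it. The libraries were chosen by genotype: 12 of the 19 libraries carry Cre and 7 do not, so that all 19 enter the comparison. The Cre-carrying genotypes were VAV (Vav-iCre as the only modified allele, n = 4), CDK8KO (Cdk8 flox/flox with Vav-iCre, n = 4) and DKO (Cdk8 flox/flox with Vav-iCre on a Cdk19 null background, n = 4). The Cre-free genotypes were WT (no modified allele, n = 3) and CDK19KO (Cdk19 null, n = 4). All mice were C57BL/6, 8 weeks old and untreated, and polyadenylated RNA was sequenced from whole marrow flushed from tibiae and femurs. Floxed Cdk8 is present in 8 of the 12 Cre-carrying libraries and in none of the Cre-free ones. Across the 12 and 7 libraries, the transgene, Cdk8 deletion and the history of each mouse line therefore cannot be told apart. VAV against WT is the comparison in which Cre alone differs by label.

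The recombinase in Vav-iCre mice is expressed under control elements of Vav1, a signalling gene of blood cells, and is active from blood stem cells onward, so that a floxed allele is deleted in nearly all blood lineages. Marrow also holds stroma, bone-lining and vessel cells, of which stroma and bone-lining cells are largely spared. A widely used Vav-iCre line carries its transgene within Commd10, a member of the COMMD family of endosomal sorting proteins, and the labels do not say which line was used. CDK8 and CDK19 are alternative kinases of Mediator, the complex that couples transcription factors to RNA polymerase II.

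The libraries held 14881701 to 33010241 reads on genes when Cre-carrying (median 25710776) and 16376215 to 25580469 when Cre-free (median 19547734). Late neutrophil markers took 3.72% to 6.84% of these reads in Cre-carrying and 3.55% to 5.04% in Cre-free libraries. Erythroid markers took 3.52% in VAV 3 and 4.02% in CDK8KO 1, against 0.169% to 1.66% in the other 17 libraries. Skeletal muscle markers took 0.137% in DKO 4 and 0.613% in CDK19KO 4, against at most 0.00755% elsewhere. Results are given with and without these 4 libraries where they move. The labels number the libraries but do not tie them to separate animals, so p-values measure the spread between libraries, and the groups rest on 3 and 2 genotypes.

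Commd10 (ENSMUSG00000042705, chromosome 18) separated the libraries by their Cre label. Its normalized counts were 1055, 1288, 1332 and 1425 in VAV, 1167, 2150, 1153 and 1714 in CDK8KO and 1565, 1103, 1725 and 1584 in DKO. In the Cre-free libraries they were 502, 371 and 416 in WT and 328, 373, 336 and 328 in CDK19KO. The lowest Cre-carrying library thus lay above every Cre-free library. The mean was 1438 ± 323 (SD, n = 12) in Cre-carrying and 379 ± 62.6 (SD, n = 7) in Cre-free marrow, a 3.79-fold difference, with a two-sided exact permutation p of 1.98e-05, the smallest that 50388 splits can give. The splits move single libraries although Cre is fixed by genotype, so this p adds little to the lack of overlap. On the scale of log2(normalized count + 1) the difference was 1.88 ± 0.12 (SE, limma adjusted p = 3.0e-08). None of the 12 other genes tested within 2 Mb of Commd10 was called by limma (1 at an unadjusted p under 0.05), and their differences ran from -0.20 to 0.85. Its neighbours Ap3s1, an adaptor subunit of vesicle transport, and Sema6a, a guidance receptor, differed by 0.25 and 0.28 (adjusted p = 0.39 and 0.45). Ap3s1 was called higher in 2 of 39 alternatives and Sema6a in 0. Of 13 COMMD and partner genes tested, Commd10 alone passed, and none of Vav1, Vav2 and Vav3 did.

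The targeted kinases gave a weaker check. Cdk19 averaged 3668 ± 525 in VAV, 3201 ± 411 in CDK8KO and 1173 ± 43.1 in DKO, against 3157 ± 99.7 in WT and 1091 ± 62.5 in CDK19KO (SD), so reads fell in both genotypes labelled Cdk19 null. Cdk19 was called higher in Cre-carrying marrow (0.36, adjusted p = 0.014), where 1 of 3 genotypes lacks it, against 1 of 2 among the Cre-free. Its difference was 0.21 in VAV against WT and 0.11 in DKO against CDK19KO, neither called, and it turned to -0.40 when CDK19KO was left out. Leaving out WT 3 also ended its call. Cdk8 averaged 994 ± 230 in VAV, 1013 ± 249 in the libraries labelled CDK8KO and 798 ± 62.0 in DKO, against 1241 ± 34.5 in WT and 1132 ± 149 in CDK19KO, and was not called (-0.37, adjusted p = 0.096). It was called lower in 6 of 39 alternatives. Gene-level counts cannot show the loss of single exons, and the deleted part is not given in the sources used here, so Cdk8 reads do not check the CDK8KO label.

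**Figure D1:**
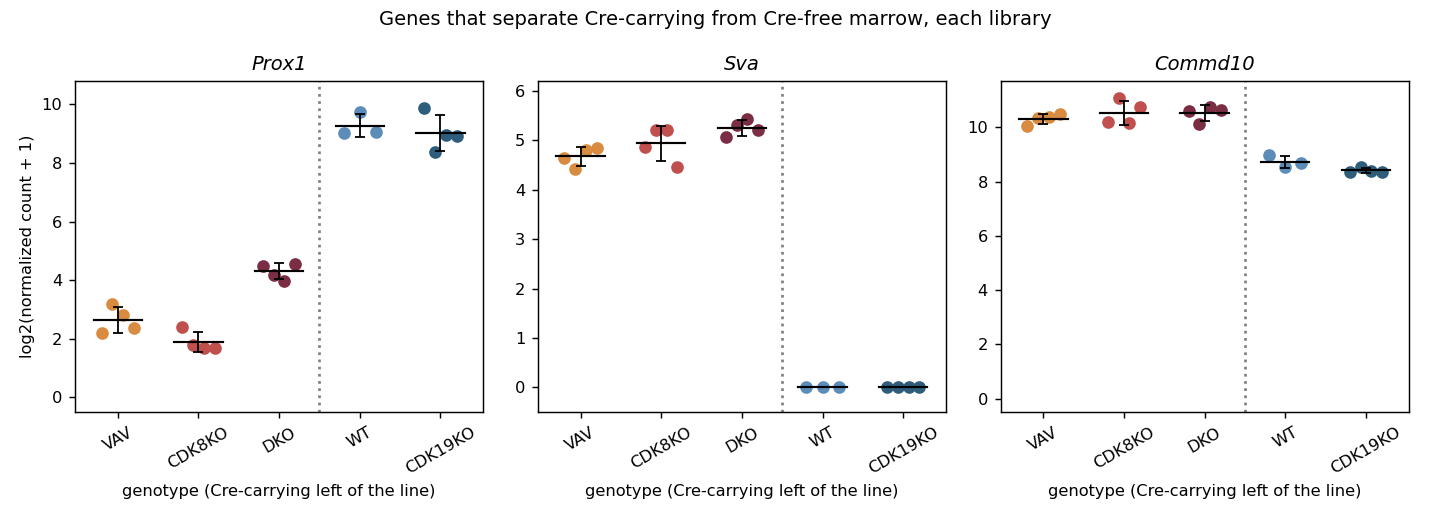
Prox1, Sva and Commd10 in each library, on the scale of log2(normalized count + 1), by genotype with Cre-carrying genotypes left of the dotted line. Points are libraries, bars the mean and whiskers the SD over 3 or 4 libraries. In all 3 genes the 12 Cre-carrying libraries do not overlap the 7 Cre-free ones.

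Prox1 (ENSMUSG00000010175, chromosome 1, 190118035 to 190170714, GRCm38/mm10), a homeobox transcription factor known for lymphatic vessel identity, was the gene with the largest fall. Its counts were 3.57, 8.02, 6.10 and 4.20 in VAV, 4.35, 2.496, 2.19 and 2.26 in CDK8KO and 21.6, 17.3, 14.7 and 22.5 in DKO. In Cre-free marrow they were 518, 848 and 533 in WT and 941, 332, 492 and 484 in CDK19KO. The Cre-carrying libraries all sat near the bottom of the scale, with DKO above VAV and CDK8KO. The difference was -6.20 ± 0.22 (adjusted p = 1.5e-12), and it was -6.63 in VAV against WT and -4.73 in DKO against CDK19KO. The difference between these was 1.90 (adjusted p = 0.18). None of the 21 other genes tested within 2 Mb of Prox1 was called by limma (5 at an unadjusted p under 0.05).

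Sva (ENSMUSG00000023289, chromosome 6, 42038394 to 42042851), which encodes a seminal vesicle protein, was read only in Cre-carrying marrow. It had 20.4 to 42.1 normalized counts in the 12 Cre-carrying libraries (24 to 45 reads each, 383 in all) and no read in the 7 Cre-free libraries. With a limit of 3 reads over the 143756975 reads of the Cre-free group, its level was at least 62.6-fold higher in Cre-carrying marrow, a limit that covers counting error only. The limma difference had an adjusted p of 1.4e-10. Within 2 Mb, 2 of 21 other tested genes were called, both higher: Clec5a, a myeloid lectin receptor (0.64), and Mgam, a glucosidase of neutrophils (0.64).

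Of the 13976 genes that averaged 10 or more normalized counts, 275 were called at a limma adjusted p under 0.05, which is 1.97% of genes. Of these, 193 were higher in Cre-carrying marrow (1.38%) and 82 lower (0.587%), and 65 differed by over 2-fold. Genotype means lay on one side in all 6 pairs of a Cre-carrying with a Cre-free genotype for 184 of the 193 and 77 of the 82. The same held for 4194 of the 13976 tested genes. Calls rest on the same genotype means, so this agreement is partly built in. The most extreme of the Cre-carrying genotypes was DKO for 156 called genes, VAV for 90 and CDK8KO for 29. Without DKO 78 genes were called, of which 69 were among the 275. Without the erythroid-rich VAV 3 and CDK8KO 1 the count was 1949, without the muscle-rich DKO 4 and CDK19KO 4 it was 130, and with all 4 left out it was 1460, of which 273 were among the 275. With a single library left out it was 796 without VAV 3, 747 without CDK8KO 1, 179 without DKO 2, 163, 131 and 92 without WT 1, 2 and 3, and 180, 127 and 159 without CDK19KO 2, 3 and 4. Without VAV 3, 566 genes were called higher and 230 lower, and without CDK8KO 1 these were 531 and 216. Larger list counts in these fits, given below, go with this general gain in calls.

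In 26 genes the 12 and 7 libraries did not overlap at all, 17 higher in Cre-carrying marrow (0.122% of genes) and 9 lower (0.0644%). All but Chmp7 were also called. With TMM, another way to scale the libraries, 12 of the 17 higher genes and all 9 lower ones stayed apart. With a library left out fewer have to be apart, and the counts were 34 higher without CDK8KO 1 and 31 higher without CDK19KO 1, and 16 lower without VAV 3 and 14 lower without CDK19KO 1. Beyond Sva and Commd10, the largest differences were those of Rasgrf2, Srgap1 and Me3. Rasgrf2, a Ras exchange factor, had 102, 159 and 286 counts as lowest, median and highest of the Cre-carrying libraries, against 28.1, 51.7 and 80.5 in the Cre-free ones. Me3, the mitochondrial malic enzyme, had 3718, 8055 and 13407, against 2350, 3035 and 3666. The differences were 1.64 ± 0.24 for Rasgrf2 and 1.26 ± 0.19 for Me3, and Me3 averaged 8198 in VAV, 8724 in CDK8KO and 7140 in DKO, against 3613 in WT and 2760 in CDK19KO. Srgap1, a GTPase-activating protein, rose by 1.47 ± 0.23, with DKO highest at 146 ± 74.6, VAV at 44.8 ± 8.67 and CDK8KO at 68.4 ± 19.4, against 26.1 ± 3.44 in WT and 25.6 ± 5.11 in CDK19KO.

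Other genes in this class were Ankrd22, Hsd17b7, Mfsd6, Tgfbr1, Klra17, Zfp987, Chil5, Mob1a, Cdc42ep3, Krcc1 and Agfg1. Tgfbr1, the type I receptor of TGF-beta, had 2487, 3049 and 3718 counts as lowest, median and highest, against 1907, 2198 and 2358. Mob1a, an adaptor of the Hippo kinases, rose by 0.39 (adjusted p = 0.032), a call lost without any of 8 single libraries: VAV 1, DKO 2, WT 1, 2 or 3, and CDK19KO 2, 3 or 4. Klra17, of the Ly49 receptor family, rose by 1.09 ± 0.14, and Zfp987, a zinc finger gene, by 1.18 ± 0.21. Both lie in clusters of similar genes, where reads may be shared between copies: the neighbours Zfp985 and Zfp988 were called higher as well (1.16 and 1.46). The genes Zfp985, Zfp988, Stfa3, Cstdc5, Chmp7, Clec5a, Mgam, Cdc42ep3, Krcc1, Agfg1 and Ucp3, and list members beyond the 4 with the smallest p in each list, were named after their values had been seen.

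Among the 9 genes lower in every Cre-carrying library, Mrc1, the mannose receptor of tissue macrophages, had 1028, 1482 and 2124 counts as lowest, median and highest, against 2223, 2775 and 3375 in Cre-free marrow. Its difference was -0.92 ± 0.12 (adjusted p = 3.7e-04), a call kept under every alternative run. Ston1, an adaptor of endocytosis, fell by 1.41 on the log2 scale and Pdgfc, a platelet-derived growth factor, by 0.74. Pop1, a subunit of RNase P, fell by 0.75, Clec2i, a lectin ligand of natural killer receptors, by 0.69, and Gnal, a G protein subunit on chromosome 18, by 0.72. The call of Gnal was lost in 14 of 19 fits that left out 1 library (all except those without VAV 3, CDK8KO 1, 2 or 4, or DKO 2), that of Ston1 and Clec2i without WT 2 or WT 3, and that of Pop1 without WT 1 or WT 2. Ucp3, a mitochondrial uncoupling protein, was at 3.32 to 14.1 counts, against 20.6 to 41.2.

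**Figure D2:**
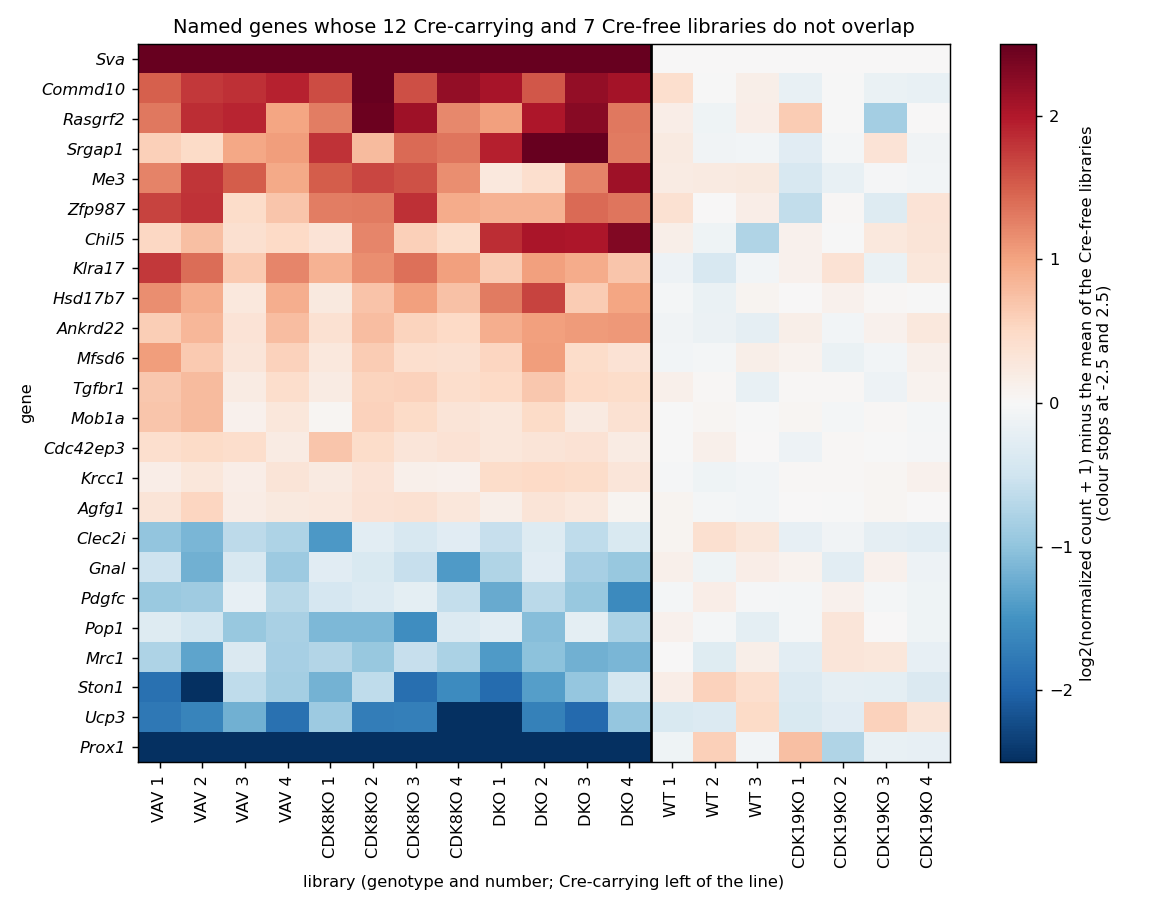
The 24 called genes whose libraries do not overlap, 16 higher and 8 lower in Cre-carrying marrow. Rows are genes ordered by log2 difference, columns are libraries with Cre-carrying ones left of the line, and colour is log2(normalized count + 1) minus the mean of the 7 Cre-free libraries. A V segment of the kappa light chain is left out.

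Called genes whose libraries overlapped were chosen by the smallest p. On the higher side these were Reck, an inhibitor of matrix metalloproteinases (0.76 ± 0.09), Calcrl, the calcitonin receptor-like receptor (0.64 ± 0.09), Ednra, an endothelin receptor (1.01 ± 0.13), Msmo1, a sterol oxidase (0.77 ± 0.11), Stfa1, a stefin protease inhibitor (1.46 ± 0.20), and Chit1, a chitinase (1.60 ± 0.20). On the lower side were Cd163, the haemoglobin scavenger receptor of macrophages (-1.34 ± 0.14), Hif3a, a hypoxia-inducible factor subunit (-1.58 ± 0.19), Cd5l, a secreted macrophage protein (-1.28 ± 0.17), Tmem267 (-0.88 ± 0.14), Creb5, a CREB-family factor (-0.80 ± 0.13), and H1f0, a linker histone (-0.84 ± 0.14). Several of these were carried by DKO. Chit1 averaged 525 ± 154 in DKO, 83.1 ± 15.2 in VAV and 99.4 ± 57.0 in CDK8KO, against 68.0 ± 4.83 in WT and 38.3 ± 7.25 in CDK19KO. H1f0 averaged 157 ± 28.4 in DKO, 884 ± 213 in VAV and 870.0 ± 236 in CDK8KO, against 805 ± 88.0 in WT and 959 ± 202 in CDK19KO, so DKO alone stood low. Stfa1 sits in a stefin cluster on chromosome 16 whose members Stfa3 and Cstdc5 were also called (1.25 and 1.26), and reads may be shared among them.

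VAV against WT and DKO against CDK19KO share no library. They are not the same contrast: VAV differs from WT in Cre alone by label, whereas DKO differs from CDK19KO in Cdk8 deletion as well. VAV against WT called 13 genes (0.0930%), 10 higher (0.0716%) and 3 lower (0.0215%), with 2068 genes at an unadjusted p under 0.05. The count was 416 without VAV 3, 27 without CDK8KO 1 and 1060 without both of these erythroid-rich libraries. It was 3, 4 and 4 without WT 1, 2 and 3, 4, 4 and 8 without VAV 1, 2 and 4, 8 without CDK8KO 3, and 6 without each of CDK19KO 2, 3 and 4. DKO against CDK19KO called 279 genes (2.00%), 187 higher (1.34%) and 92 lower (0.658%). It called 441 without CDK8KO 1, 880 without both erythroid-rich libraries, 124 without DKO 2 and 119, 132 and 129 without CDK19KO 2, 3 and 4. VAV 3 and CDK8KO 1 are not in that comparison and act through the shared estimate of spread.

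Called in both were 6 genes, which is 46.2% of the 13 and 2.15% of the 279, each in the same direction: Prox1, Sva, Commd10, Ankrd22, Slc7a7 and Cmpk2. Ankrd22, an ankyrin repeat gene on chromosome 19, had 837, 963, 686 and 930 counts in VAV, against 511, 492 and 467 in WT, and 1015, 1110, 1141 and 1147 in DKO, against 601, 517, 585 and 657 in CDK19KO. Neither pair overlapped, and the differences were 0.79 and 0.91 (adjusted p = 0.018 and 2.5e-04). Slc7a7, a transporter of cationic amino acids, had 648, 286, 519 and 382 counts in VAV, against 215, 148 and 214 in WT, and 515, 479, 456 and 433 in DKO, against 287, 251, 220 and 256 in CDK19KO. Cmpk2, a mitochondrial nucleotide kinase induced by interferon, had 2816, 2300, 1926 and 1826 counts in VAV, against 1080, 1373 and 1203 in WT, and 2312, 2721, 2106 and 2347 in DKO, against 1877, 1653, 1547 and 1458 in CDK19KO. These again did not overlap within either pair.

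The calls of Prox1, Sva and Commd10 held under every alternative in both comparisons. In VAV against WT, Ankrd22 lost its call without WT 1, 2 or 3 or VAV 1, 2 or 4, Cmpk2 without any of 8 libraries and Slc7a7 without any of 13. In DKO against CDK19KO, Cmpk2 lost its call without any of 12 libraries and Slc7a7 without CDK19KO 2, 3 or 4 or DKO 1, 2 or 3.

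**Figure D3:**
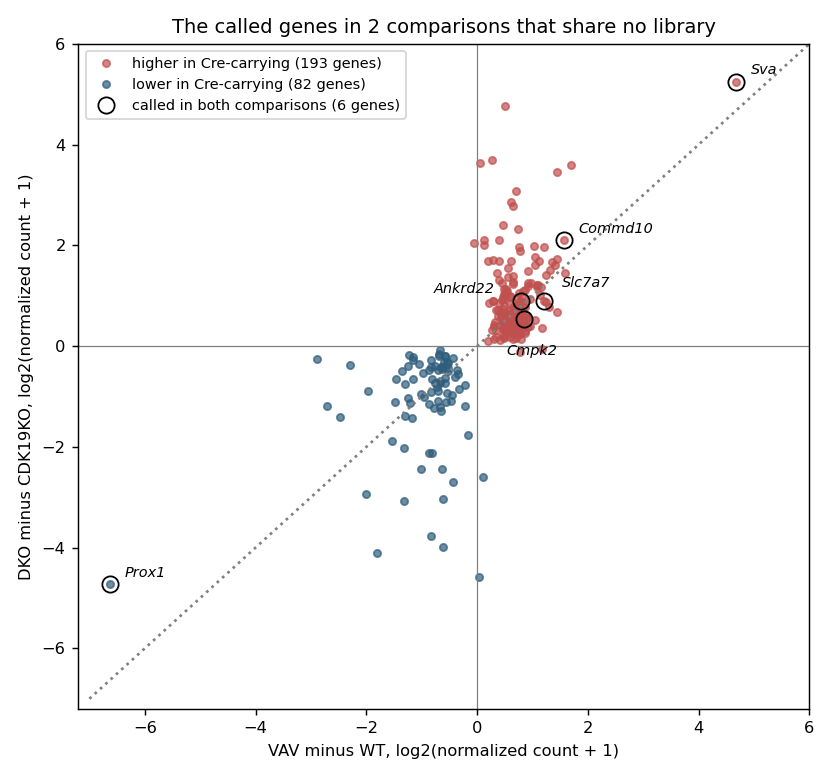
The 275 called genes by their difference in VAV against WT (horizontal) and in DKO against CDK19KO (vertical), both on the scale of log2(normalized count + 1). Colour gives the direction in the pooled comparison, circles mark the 6 genes called in both, and the dotted line marks equal differences. Prox1 and Sva lie at the ends, and many genes have a larger difference on the vertical axis.

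The difference between the 2 comparisons was itself tested. It was called for 20 genes (0.143%), 11 with a positive (0.0787%) and 9 with a negative value (0.0644%). Without WT 3 it was called for 11 genes. Of the 275 genes, 6 were among them: Cd163, Chit1, Dock9, H1f0, Perp and Reck. Perp, a p53-responsive membrane protein, had 384, 484, 485 and 468 counts in DKO, against 54.9, 17.8, 43.1 and 37.9 in CDK19KO. In VAV it had 20.5, 25.5, 26.1 and 38.6, against 34.4, 25.3 and 20.5 in WT, so the DKO libraries alone stood high. Its pooled difference of 1.32 was 3.63 in DKO against CDK19KO and 0.05 in VAV against WT (difference adjusted p = 0.0010). Cd163 had 62.2, 51.9, 75.8 and 77.9 counts in DKO, against 512, 612, 703 and 419 in CDK19KO, and 482, 434, 695 and 590 in VAV, against 923, 743 and 840 in WT. Neither pair overlapped. The difference was -3.04 in DKO against CDK19KO (adjusted p = 6.2e-08) and -0.62 in VAV against WT, which was not called (adjusted p = 0.22), and these differed by -2.42 (adjusted p = 0.0010).

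The list of interferon-stimulated genes included 9 called higher. Of 36 tested, 9 were called higher (against 1.38% of all genes) and none lower, 30 had a positive difference, and the median was 0.35, against -0.01 over all genes. The medians were 0.46 in VAV against WT and 0.58 in DKO against CDK19KO. The called members were Ifit1, Ifit3 and Ifit3b, which bind foreign RNA, Oas3, which makes the activator of RNase L, Zbp1, a nucleic acid sensor, Cmpk2, Rtp4, Ifi27l2a and Xaf1. Ifit1 had 162, 368 and 642 counts as lowest, median and highest in Cre-carrying libraries, against 79.9, 154 and 279 in Cre-free ones, which overlap (1.19 ± 0.22, adjusted p = 0.0071). The members Isg15, Mx1, Mx2, Rsad2 and Stat2 were not called, with differences of 0.00, -0.04, -0.04, -0.15 and -0.01. Reads of Ifit3 and Ifit3b may be shared, since the genes are near copies.

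The promoters of called members are shown because they hold the interferon-stimulated response element. The motif searched on both strands was GAAA, any 2 bases, then GAAA again, and matches are in capitals, joined where matches overlap. Sequences are from RefSeq, build GRCm38.p6, from 250 bases before to 50 after the gene's start.
Ifit1, chr19:34640639-34640938, plus strand: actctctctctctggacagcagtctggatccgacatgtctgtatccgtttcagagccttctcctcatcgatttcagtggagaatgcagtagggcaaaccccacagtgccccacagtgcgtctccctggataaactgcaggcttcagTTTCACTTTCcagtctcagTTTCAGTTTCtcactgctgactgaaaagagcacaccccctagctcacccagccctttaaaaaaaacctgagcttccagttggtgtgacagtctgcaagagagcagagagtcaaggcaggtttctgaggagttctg
Ifit3b, chr19:34607707-34608006, plus strand: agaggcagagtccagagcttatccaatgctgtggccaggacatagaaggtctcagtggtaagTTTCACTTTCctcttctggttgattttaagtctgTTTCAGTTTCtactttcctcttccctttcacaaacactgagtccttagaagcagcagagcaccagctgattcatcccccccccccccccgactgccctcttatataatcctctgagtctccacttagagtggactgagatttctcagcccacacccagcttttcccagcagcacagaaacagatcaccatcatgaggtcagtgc
Oas3, chr5:120777610-120777909, minus strand: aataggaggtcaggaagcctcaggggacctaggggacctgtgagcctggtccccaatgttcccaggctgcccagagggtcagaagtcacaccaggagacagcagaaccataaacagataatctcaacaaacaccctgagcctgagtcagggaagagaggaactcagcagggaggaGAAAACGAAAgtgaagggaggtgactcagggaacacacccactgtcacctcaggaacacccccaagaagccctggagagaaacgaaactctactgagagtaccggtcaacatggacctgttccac
The element was found in 17 of the 26 list members with a promoter entry (65.4%), against 1079 of 27025 promoters of all genes (3.99%). Called members held it in 4 of 6 and members not called in 13 of 20.

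The interferon count moved with single libraries. It was 16 without VAV 3, where 566 of all genes were called higher. It was 4 without each of VAV 1, VAV 2 and DKO 2, and 5 without CDK8KO 4 or WT 2. It was 2 without WT 1 or WT 3 and 3 without CDK19KO 2, 3 or 4. With the whole DKO genotype left out 1 member was called. With the whole CDK19KO genotype left out 2 members were called, and with the whole WT genotype left out none by limma. Without VAV 3 and CDK8KO 1 together, 19 were called higher and 1 lower, where 1147 and 802 of 13976 genes were. Without all 4 libraries rich in erythroid or muscle reads 16 were called higher and 1 lower, where 879 and 581 of all genes were. Rtp4 lost its call without WT 1, WT 3 or CDK19KO 2, 3 or 4, and Ifit3b without WT 1 or WT 3. In the plot of list levels, the 4 DKO libraries and VAV 1 were highest (0.63 to 0.87), and CDK19KO 1 came next at 0.53. The 4 CDK8KO libraries lay at -0.01, 0.38, -0.15 and 0.16, within the Cre-free range of -0.35 to 0.53. VAV 2, 3 and 4 also lay within it (0.45, 0.16 and 0.25).

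Several macrophage genes were lower. In the list of monocyte and macrophage markers, 5 of 21 were called lower (Cd163, Mrc1, Axl, Vcam1 and Mertk) and 1 higher (Ly6c2, a surface protein of classical monocytes), against 0.587% of all genes called lower and 1.38% called higher. The list as a whole had a positive difference in 10 members and a negative one in 11, with a median of -0.01 (0.09 in VAV against WT, where 12 were positive, and -0.20 in DKO against CDK19KO). Axl and Mertk, receptors for the clearance of dead cells, fell by 0.55 and 0.44 on the log2 scale, and Vcam1, an adhesion molecule of marrow macrophages and stroma, fell by 0.47. The call of Axl was lost without WT 3 and that of Vcam1 without WT 1. Ly6c2 had 20549, 50074 and 90762 counts as lowest, median and highest, against 22115, 25694 and 35058. The count called lower was 9 without VAV 3, where 230 of all genes were, and 3 without WT 1 or WT 3. The count called higher was 3 without VAV 3 or CDK8KO 1 and 2 without DKO 3, and it was 0 by limma without VAV 1 or 2, CDK8KO 4, DKO 1 or 2, WT 2 or 3, or CDK19KO 3 or 4. Csf1r, Cd68 and Adgre1, widely used markers of monocytes and macrophages, were not called, with differences of 0.27, 0.32 and 0.05.

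A list of 19 resident macrophage genes, drawn up after values had been seen and so no independent support, had 10 called lower, against 0.587% of all genes, and none higher, with a median of -0.47. Beyond those above it held Cd5l, Fcna, Timd4, Vsig4 and Apoe. Fcna, a ficolin of tissue macrophages, had 244, 423 and 629 counts as lowest, median and highest, against 598, 698 and 998. The 19 genes took 0.0976% to 0.146% of reads in Cre-carrying and 0.140% to 0.203% in Cre-free libraries. Their median was -0.38 in VAV against WT, with none called, and -0.77 in DKO against CDK19KO, with 12 called lower. The mean level of the list was lowest in the DKO libraries (-1.18 to -0.79). VAV 3 (-0.04) and CDK8KO 4 (-0.11) lay within the Cre-free range of -0.155 to 0.26. Fewer cells of a type and less RNA per cell cannot be told apart in whole marrow. The count called lower was 15 without VAV 3, 13 without CDK8KO 1, 15 without all 4 libraries rich in erythroid or muscle reads, and 3 without DKO. Over all genes these fits called 230, 216, 581 and 32 lower, in the same order.

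Late neutrophil markers included 3 called higher of 21, against 1.38% of all genes: Itgam, an integrin of myeloid cells (0.53), Mmp9, a matrix metalloproteinase (0.47), and Cd177, a neutrophil surface protein (0.56). Of the 21, 19 had a positive difference, with a median of 0.32. The median was 0.51 in VAV against WT (20 positive) and 0.15 in DKO against CDK19KO (14 positive). The mean level of the list was 0.04, 0.37, -0.08 and -0.06 in DKO 1, 2, 3 and 4. In the Cre-free libraries it ran from -0.24 to 0.19. No member was called without WT 2, WT 3 or CDK19KO 2, 3 or 4, and 1 was called without WT 1, VAV 1, 2 or 4, CDK8KO 4 or DKO 1 or 2. The count was 8 without VAV 3, 6 without CDK8KO 1 and 13 without both, a fit in which 1147 of 13976 genes were called higher. With the erythroid level as a covariate 1 member was called.

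**Figure D4:**
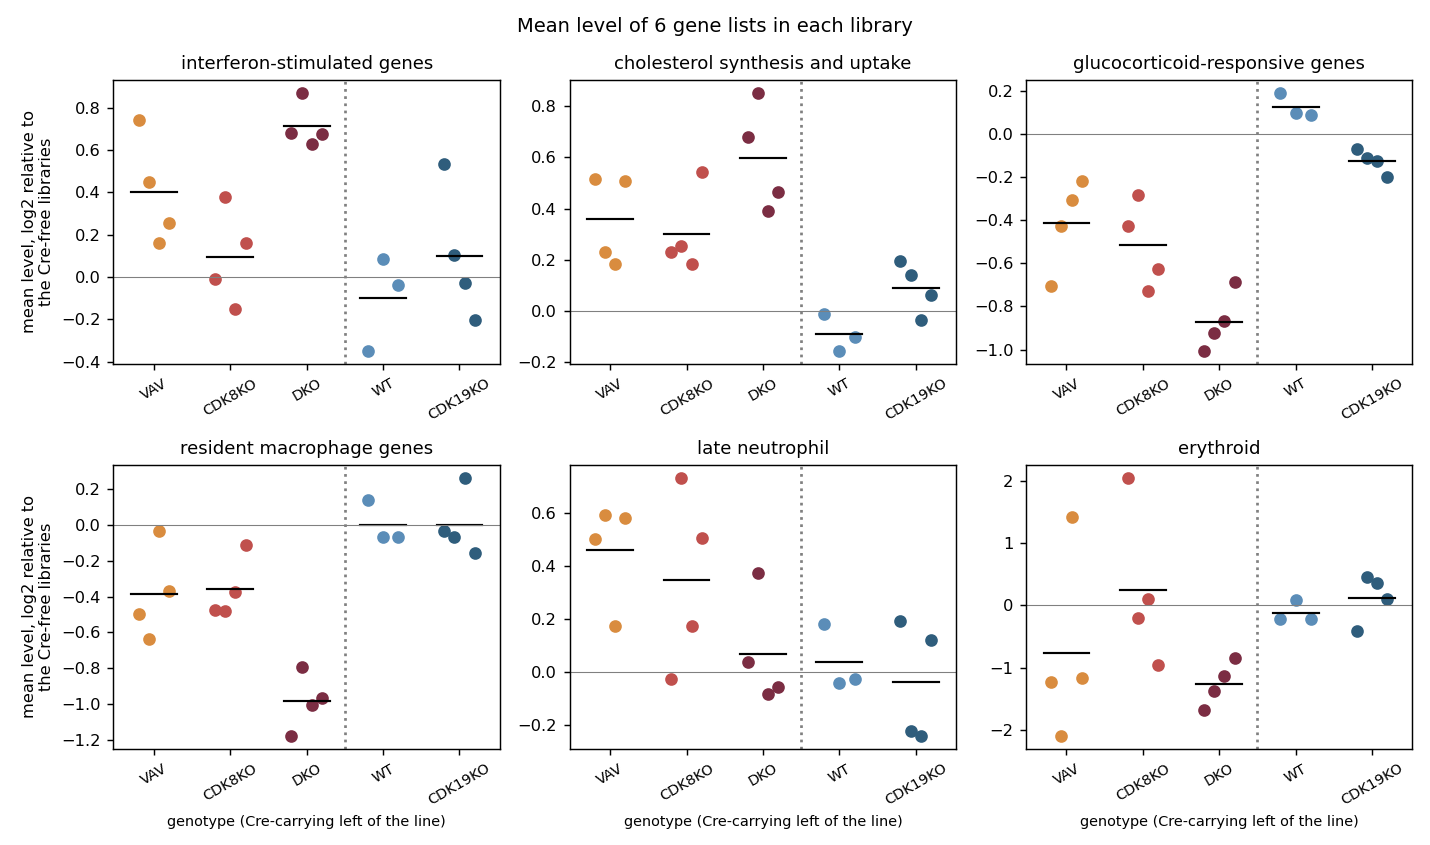
Mean level of 6 gene lists in each library, as the mean over members of log2(normalized count + 1) relative to the Cre-free libraries, by genotype with Cre-carrying genotypes left of the dotted line. Points are libraries and bars genotype means. Cholesterol genes span 0.18 to 0.85 in Cre-carrying and -0.16 to 0.20 in Cre-free libraries, and the erythroid panel shows VAV 3 and CDK8KO 1 far above the rest.

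A list of cholesterol synthesis and uptake genes, also drawn up after values had been seen, included 11 called higher. Of 25 tested, 11 were called higher (against 1.38% of all genes) and none lower, 14 did not pass, 24 had a positive difference, and the median was 0.41 (0.37 in VAV against WT and 0.53 in DKO against CDK19KO). The called genes run along the pathway: Hmgcs1, Mvk and Idi1 of the mevalonate steps, Fdft1 and Sqle of squalene, and Cyp51, Msmo1 and Hsd17b7 of sterol demethylation. Srebf2, a transcription factor of sterol genes, and its regulator Insig1 were called too. A sterol regulatory element, searched as TCAC, any base, then CCAC on both strands of the same promoter windows, was found in 1 of the 18 list members with an entry (5.56%), against 388 of 27025 promoters (1.44%). Hsd17b7 had 274, 433 and 745 counts as lowest, median and highest, against 205, 233 and 248, without overlap (0.89 ± 0.14, adjusted p = 0.0031). Msmo1 had 860, 1137 and 1788, against 513, 689 and 888. The count was 13 without CDK8KO 1, 12 without VAV 3, 5, 6, 6 and 7 without WT 3, WT 2, CDK19KO 3 and CDK19KO 4, and 4 without DKO, and no member was called lower in any of these.

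Erythroid markers had a negative difference in 25 of 26, with a median of -0.59 (-0.20 in edgeR), but limma called none lower (3 without VAV 3, 1 without CDK8KO 1, none by edgeR and 1 by DESeq2). Nfe2, a factor of erythroid cells and megakaryocytes, was called higher (0.35, adjusted p = 0.042), a call lost in 11 of the fits that left out 1 library. Without VAV 3 and CDK8KO 1, 24 of the 26 were called lower, with a median of -0.98, in a fit that called 802 of 13976 genes lower. Both libraries were left out for their high erythroid reads. The erythroid counts without both, or without either, are therefore no test of this list. Megakaryocyte and platelet markers had a negative difference in 18 of 19, with a median of -0.60, but 11 of 19 were positive in VAV against WT (median 0.07) and 1 of 19 in DKO against CDK19KO (median -1.08). Of these Thbs1, thrombospondin 1, was called lower (-1.25 ± 0.24). Thbs1 averaged 1621 ± 476 in DKO, 9032 ± 4019.5 in VAV and 7829.9 ± 3873 in CDK8KO, against 11638 ± 3307 in WT and 10489.6 ± 2785 in CDK19KO. Without VAV 3 and CDK8KO 1, 8 of the 19 were called lower. Those 2 libraries also held the highest levels of this list among the Cre-carrying ones (1.15 and 0.62), so this count is no test either.

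Of 26 stroma, bone and vessel genes, Lyve1 and Runx2 were called higher and Prox1 and Bglap lower. Over all genes 1.38% were called higher and 0.587% lower. The count lower was 5 without VAV 3 and 6 without CDK8KO 1, fits that called 230 and 216 of all genes lower. Of the 26, 20 had a negative difference, with a median of -0.38 (-0.24 in VAV against WT and -0.52 in DKO against CDK19KO). Lyve1, a hyaluronan receptor of lymphatic and liver vessels and of some macrophages, had 60.4, 103 and 481 counts as lowest, median and highest, against 31.8, 52.4 and 76.9 (1.34 ± 0.21). Runx2, the osteoblast factor, rose by 0.45, and Bglap, osteocalcin, fell by 2.41 on the log2 scale, with calls lost without WT 1, 2 or 3 or CDK19KO 3, and for Bglap also without CDK19KO 2. Of 9 lymphatic and liver vessel genes tested, Lyve1 and Nrp2 were called higher (against 1.38% of all genes) and Prox1 lower (against 0.587%). Flt4, Stab1 and Stab2 were not called. Of 22 p53 targets, Perp and Pmaip1, which promotes cell death, were called higher (1.32 and 0.78), against 1.38% of all genes. The list median was 0.11. Perp differed by 0.05 in VAV against WT and by 3.63 in DKO against CDK19KO. The calls of Perp and Pmaip1 were both lost when DKO was left out. Of 18 eosinophil, basophil and mast cell genes, Fcer1a, a chain of the IgE receptor, was called higher (0.71), against 1.38% of all genes. Fcer1a had 344 ± 60.8 counts in DKO, 119 ± 9.51 in VAV and 113 ± 33.2 in CDK8KO, against 97.9 ± 6.01 in WT and 106 ± 30.1 in CDK19KO. Of the 18, 8 had a positive difference and 10 a negative one, with a median of -0.14. The median was -0.20 in VAV against WT (7 positive) and 0.88 in DKO against CDK19KO (16 positive, 5 called).

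**Figure D5:**
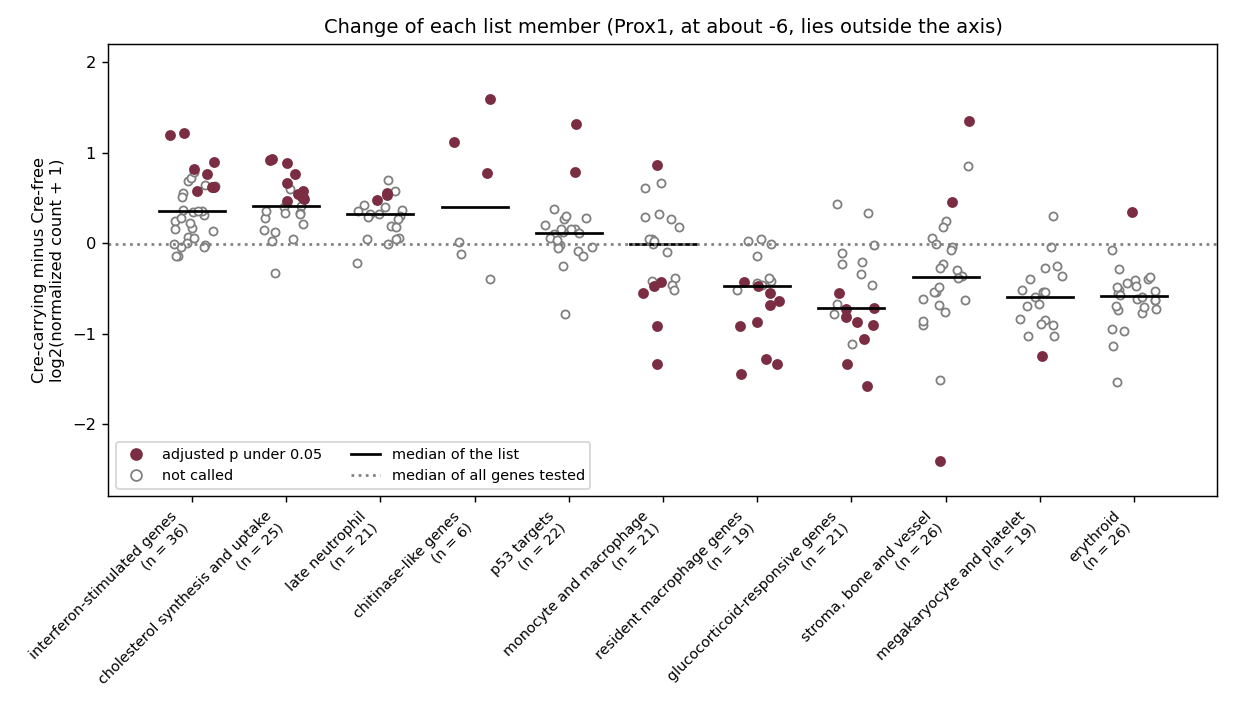
Difference of each list member between Cre-carrying and Cre-free marrow on the scale of log2(normalized count + 1), with filled points for called genes, bars for list medians and the dotted line for the median of all genes (-0.01). Called interferon, cholesterol and neutrophil genes lie above 0 and called macrophage genes, except Ly6c2, below it.

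No member was called in the lists of stem and progenitor cells (17 tested), early granulocytes (12), dendritic cells (14), B cell precursors (17), mature B cells (17), plasma cells (16), T cells (21), NK cells (16), skeletal muscle (16), DNA sensing and repair (20), S phase (30), mitosis (30), heat shock chaperones (15), immediate early genes (24) and strain-variable genes (10). Over these 15 lists and 275 list entries, 43 had an unadjusted p under 0.05, edgeR called 1 and DESeq2 called 17. Mitosis genes had a positive difference in 27 of 30 with a median of 0.09, in 28 of 30 in VAV against WT (0.20) and in 6 of 30 in DKO against CDK19KO (-0.13). Mature B cell genes had a negative difference in 15 of 17, with a median of -0.37. T cell genes had a median of 0.21, but -0.26 in VAV against WT and 0.81 in DKO against CDK19KO. By chromosome the share of called genes ran from 0.631% on chromosome 9 to 3.23% on chromosome 15, with 2.05% on chromosome 18.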

How the data were processed

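Polyadenylated RNA of 19 marrow libraries was sequenced. The deposited values are normalized counts per gene (a signal scaled per library by the authors). Salmon 1.4.0, DESeq2 and build mm10 are named per the submitters' processing notes. In each library 100% of values were whole multiples of one step (tolerance 0.001), so whole reads were recovered for DESeq2 1.42.0 and edgeR 4.0.16. Libraries held 14881701 to 33010241 reads. A gene with no read may still hold up to 3 reads (counting error only).

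Of 34432 genes, 13976 with a mean of at least 10 over the 19 libraries were tested with limma 3.58.1 (R 4.3.3) on log2(value + 1). The 5 genotypes were fitted together, with VAV, CDK8KO and DKO weighted equally against WT and CDK19KO weighted equally. P-values were adjusted by Benjamini-Hochberg over all tested genes. Fold changes on this scale understate those of low genes. Scripts were tested on simulated data.

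Named genes were up to 12 per direction without overlap and with the largest change, up to 6 per direction with overlap and the smallest p, those called in both disjoint comparisons, up to 6 per direction of their difference, and up to 4 called members per list. Predicted genes, immunoglobulin segments and sex-linked genes were counted but not named. Coordinates are GENCODE vM21 (GRCm38/mm10). Members and lists were chosen with earlier results of these data known. Alternatives were other tools, scalings, pseudocounts, filters, fits, and leaving out libraries or genotypes. Some list members are counted but not reported here by name.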

Additional observations from a re-analysis of the deposited data

Results flagged for a closer look

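A test of whether DKO against CDK19KO departed from VAV against WT called 20 genes (limma adjusted p under 0.05). Of these, 12 are listed here. The difference in DKO against CDK19KO was higher than that in VAV against WT for Perp by 3.59, Chit1 by 3.43 and Sox13 by 2.88. It was also higher for Clec4b2 by 1.71, Dock9 by 1.49 and Spata13 by 1.13. The difference between the comparisons was -7.11 for H2bc24, -4.08 for Asprv1, -2.73 for Fcnb, -2.71 for H1f0, -2.51 for Vnn3 and -2.42 for Cd163. Asprv1, a skin protease, had 36.5, 36.4, 21.1 and 19.5 counts in DKO, against 537, 253, 378 and 279 in CDK19KO, and 1171, 1012, 580 and 1098 in VAV, against 783, 693 and 570 in WT. H2bc24, a histone gene, had 481, 19.04, 11.6 and 36.0 counts in DKO, against 894, 448, 435 and 947 in CDK19KO, and 186, 327, 675 and 944 in VAV, against 32.6, 57.2 and 44.8 in WT. The Sox13 call was lost without WT 2 or WT 3. The H2bc24 call was lost in edgeR and without the muscle-rich DKO 4 and CDK19KO 4. Without all 4 libraries rich in erythroid or muscle reads, the calls of H2bc24, Sox13, Vnn3, Clec4b2 and Spata13 were lost.

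Over 343 groups of libraries from 69 genes, 18 had 1 library far from the others, where chance gives about 1 in 20. The DKO libraries that stood apart were DKO 1 for H2bc24 (481 normalized counts, others at most 36.0), and DKO 2 for Msmo1 (1788, others at most 1345), Tgfbr1 (3440.0, others at most 3059) and Vcam1 (6822, others at most 5641). VAV 3 was low for Itgam (12619, others from 20546), Clec4b2 (179.5, others from 248) and Spata13 (1483, others from 1728). VAV 4 was high for H1f0 (1199) and VAV 2 for Lyve1 (143). CDK8KO 1, rich in erythroid reads, was high for Bglap (31.5, others at most 4.38) and Prox1 (4.35, others at most 2.496) and low for Clec2i (140.2, others from 288). CDK19KO 4, rich in muscle reads, was high for Ednra (186) within its genotype and for Fcer1a (150.4) among the 7 Cre-free libraries. CDK19KO 1 was high for Pmaip1 (212) within its genotype and for Rtp4 (867) among the Cre-free libraries, CDK19KO 2 for Bglap (103), and WT 3 for Hif3a (439) among the Cre-free libraries.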

How the results depend on the processing

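Of 85 single-gene results, 22 kept direction and call under all alternatives and 61 lost a call under at least 1. Cdk8 and Ap3s1 gained a call under some. The 275 calls of Cre-carrying against Cre-free became 806 with DESeq2, 1388 with array weights, 134 without genotype in the fit and 81 in an additive fit of Cre, Cdk8 and Cdk19. They became 1066, 78, 38 and 36 without CDK8KO, DKO, WT and CDK19KO, 130 without the muscle-rich and 1949 without the erythroid-rich libraries. The 13 of VAV against WT became 320 with DESeq2, 640 with array weights, 48 with an erythroid covariate, and 7 and 1060 without the muscle-rich and the erythroid-rich libraries. The 279 of DKO against CDK19KO became 601, 1251, 141, 97 and 880 in the same order. The 20 for the difference between them became 101 with DESeq2, 68 with array weights and 57 with the covariate. Without all 4 rich libraries, an alternative chosen after seeing the data, the counts were 1460, 823, 481 and 11. Leaving out 1 library gave 92 to 796, 3 to 416, 119 to 441 and 11 to 30 in these comparisons, and 17 to 34 and 9 to 16 genes without overlap, higher and lower. Cdk19 reversed to -0.40 without CDK19KO. The causes were not tested.

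Same-numbered libraries did not deviate together: of 36 such pairs 6 had r over 0.1, and 4 of 19 libraries correlated best with their own number. With the replicate number as a block, the counts were 311, 18, 263 and 13, and the difference of Commd10 was 1.86. Depth limits genes at few reads.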

Other observations

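A list of genes known to respond to glucocorticoids, drawn up after values had been seen and so given no test, included 9 called lower in Cre-carrying marrow. Of 21 tested, 9 were called lower (against 0.587% of all genes), none higher and 12 in neither direction, and 19 had a negative difference, and the median was -0.72 (-0.62 in VAV against WT and -0.72 in DKO against CDK19KO). The called genes were Fkbp5, a co-chaperone of the glucocorticoid receptor, Zbtb16, a zinc finger factor, Hif3a, Cd163, Il1r2, a decoy interleukin-1 receptor, Angptl4, Glul, Klf9 and Map3k6. Fkbp5 had 1743, 3078, 2055 and 2318 counts in VAV, against 4061, 3733 and 3281 in WT, and 1124, 1686, 1650 and 1972 in DKO, against 3468, 2483, 3223 and 2697 in CDK19KO. Neither pair overlapped. The mean level of the list ran from -1.01 to -0.22 in Cre-carrying and from -0.20 to 0.19 in Cre-free libraries. Tsc22d3, Per1, Sgk1 and Dusp1 were not called, with differences of -0.02, -0.81, 0.44 and -0.21. The count was 4 without DKO, 2 without WT, 4 without CDK19KO and 0 in the additive limma fit, and 6 without WT 2, WT 3 or CDK19KO 3. Without VAV 3, and likewise without CDK8KO 1, 13 were called lower and 2 higher. Over all genes these fits called 230 and 216 lower and 566 and 531 higher.

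Of 6 chitinase-like genes, a list likewise drawn up after values had been seen, Chit1, Chil5 and Chil1 were called higher (against 1.38% of all genes), and Chil3, Chil4 and Ovgp1 were not called (-0.13, -0.40 and 0.01). Ttyh1, a called gene, was high in WT alone, at 85.0, 54.5 and 38.4 counts, against at most 10.3 in every other library, CDK19KO included.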
